A study of Mus musculus with 6 samples.

Results

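Chemokines are small secreted proteins that direct the movement of leukocytes, and 9 of their genes were examined here across control, DSS-treated and tumor crypts of the mouse colon. The 9 are Cxcl1, Cxcl2, Cxcl5, Cxcl12, Cxcl16, Ccl2, Ccl5, Ccl20 and Ccl28, and every probe set that the platform's table pairs with one of these symbols and no other was taken. The rule gave 12 probe sets of the 20380 with a single symbol, for 9 of 12393 genes: 3 genes had 2 probe sets and 6 had 1. Probe sets were matched to the 9 genes without use of their values, and none of the 12 is shared with another gene in the table. The genes themselves were chosen with earlier results of these data known.

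All animals were male Lgr5-lacZ heterozygous mice, which carry a reporter at Lgr5, a gene of crypt stem cells. The study has 6 Affymetrix arrays in 3 groups of 2, and every group was hybridised as labelled cRNA from pooled tissue. The control group is crypts from the distal colons of 2 mice of 6 to 8 weeks on plain drinking water, per array. The DSS group is crypts from 2 such mice taken on day 2 of 1% DSS (dextran sodium sulfate), a polymer that injures the colonic epithelium. The tumor group is crypts from 12 pooled adenomas of 2 mice, taken 90 days after an injection of azoxymethane (AOM), a colon carcinogen, at 12.5 mg/kg. Those mice, 6 to 8 weeks old at injection, had 3 cycles of DSS, at 2%, 1.5% and 1.0%, each of 5 days with 14 days of water after it, and so the tumor group differs from the control group in carcinogen, earlier DSS and time as well as in tissue. These differences cannot be told apart in this design. With 2 pools a group, the number of arrays limits the precision, and p-values measure the spread between pools rather than between single mice.

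The values are MAS5 signal intensities, a linear brightness per probe set with the trimmed mean of each array set near 500.2. Median intensities ran from 94.8 to 131 between arrays. Mean intensities of the poly-A spike controls, added in known amounts before labelling, were 777 on control array 1 and 1168 on DSS array 1, against 312 to 394 on the other 4. Differences are given on the log2(intensity + 17.8) scale, which understates the change of dim probe sets, and were tested with limma over 7445 genes with Benjamini-Hochberg adjustment at 0.05. To be tested, a probe set had to be above its array's median on at least 2 arrays. Of the 9 chemokine genes 7 were tested, while Ccl2 and Ccl5 stayed below the median on every array. Cxcl1, Cxcl2, Cxcl5 and Cxcl16 passed that filter through the tumor arrays alone, and so had to differ between groups to be tested at all. Probe sets differ in how well they bind, so the intensities of different genes are not compared, and the marker sums given further on serve only to compare arrays, with bright probe sets weighing most in them. The epithelial label matched the arrays: all 11 epithelial markers were tested, and Epcam, an adhesion protein of epithelial cells, lay between 11358 and 14732 on all 6 arrays. Of the 11 markers 2 were called higher in tumor than in control, as given further on.

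Chemokines act through receptors with a serpentine fold on leukocytes. CXCL1, CXCL2 and CXCL5 carry the ELR motif and draw neutrophils through CXCR2, and their genes are classical targets of NF-kB, a transcription factor switched on by TNF, interleukin-1 and bacterial products. CXCL12 is made mostly by stromal cells and binds CXCR4 and the scavenger ACKR3. CCL20 and CCL28 are products of mucosal epithelium, drawing CCR6-bearing cells and IgA plasma cells. CXCL16 is made as a membrane protein that can be shed, and CCL2 and CCL5 recruit monocytes and T cells in inflammation.

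RefSeq promoters of GRCm38.p6 were given for 5 of the 9 genes, namely Cxcl1, Cxcl2, Cxcl12, Ccl20 and Ccl28, and 250 bases before the annotated start were searched. The kappa B core, GGG followed by any 2 bases and then TTTCC, is a form of the NF-kB site and was searched on both strands. It was found in 3 of the 5, those of Cxcl1, Cxcl2 and Ccl20, and in 1.41% of 32851 promoters of the same length. TATAAA, also searched on both strands, was in none of the 5 and in 12.4% of all. The 3 promoters with a kappa B match are shown because Cxcl1 and Cxcl2 rose in tumor crypts and Ccl20 did not pass the test, as given further on. All are on the plus strand: Cxcl1 at chr5:90890995-90891244, Cxcl2 at chr5:90903649-90903898 and Ccl20 at chr1:83116516-83116765. Capitals mark the matches, on either strand.
Cxcl1: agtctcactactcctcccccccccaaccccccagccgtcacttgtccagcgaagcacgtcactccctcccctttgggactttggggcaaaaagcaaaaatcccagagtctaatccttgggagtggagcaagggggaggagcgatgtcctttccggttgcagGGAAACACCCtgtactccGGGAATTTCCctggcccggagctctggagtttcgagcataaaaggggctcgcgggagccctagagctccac
Cxcl2: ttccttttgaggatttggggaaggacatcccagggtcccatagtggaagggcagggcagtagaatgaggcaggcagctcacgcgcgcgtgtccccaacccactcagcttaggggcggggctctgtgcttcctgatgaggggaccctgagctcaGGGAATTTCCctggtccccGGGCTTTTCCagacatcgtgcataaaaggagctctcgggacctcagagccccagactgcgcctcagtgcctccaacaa
Ccl20: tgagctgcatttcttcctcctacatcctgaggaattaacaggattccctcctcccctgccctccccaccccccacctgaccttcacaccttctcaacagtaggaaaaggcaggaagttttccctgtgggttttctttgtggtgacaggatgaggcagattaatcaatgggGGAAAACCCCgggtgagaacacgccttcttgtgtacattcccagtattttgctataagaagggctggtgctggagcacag

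The Cxcl1 promoter held GGGAATTTCC at 71 to 62 bases before the start and a minus-strand match, read on the plus strand as GGAAACACCC, at 89 to 80 bases before it. In the Cxcl2 promoter GGGAATTTCC lay at 97 to 88 and GGGCTTTTCC at 78 to 69 bases before the start. Both promoters share the 14-base run GGGAATTTCCCTGG around the first of these, and the genes are neighbours on chromosome 5. The Ccl20 promoter had a single match on the minus strand, read as GGAAAACCCC, at 80 to 71 bases before the start. A match is a run of letters and no measurement of binding.

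Cxcl5, Cxcl2 and Cxcl1, the neutrophil attractants, rose in tumor crypts in both pools and stayed low in control and DSS crypts. On the log2 scale the rises over control were 7.51 for Cxcl5, 5.37 for Cxcl2 and 4.40 for Cxcl1. After 2 days of DSS none of the 3 passed the adjusted test.

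Cxcl5 gave intensities of 6.50 and 0.725 in the control arrays, 24.4 and 37.1 in the DSS arrays, and 2812 and 5263 in the tumor arrays. Both tumor arrays stood far above the rest, and both DSS arrays above both control arrays, although all 4 of these were well under the array medians. Group means were 3.61 ± 4.08 in control, 30.8 ± 8.93 in DSS and 4037 ± 1733 in tumor (SD, n = 2 each). The log2 rise in tumor over control was 7.51 (SE 0.34, 95% confidence interval 6.73 to 8.29, limma adjusted p = 1.74e-05), and over DSS 6.33 (SE 0.34, adjusted p = 4.24e-05). Since the control signal is near nothing, the size depends on the pseudocount: tumor over control was 10.06 with a pseudocount of 1 and 5.16 with the median of all values, and Cxcl5 passed under both.

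Cxcl2 was 14.6 and 28.2 in control, 11.0 and 21.3 in DSS, and 693 and 3572 in tumor. The tumor arrays were the high ones and differed from each other 5.15-fold, while control and DSS overlapped. Means were 21.4 ± 9.56, 16.2 ± 7.31 and 2133 ± 2036 (SD, n = 2 each). Tumor exceeded control by 5.37 on the log2 scale (SE 0.65, 95% interval 3.88 to 6.86, limma adjusted p = 0.00104) and DSS by 5.57 (adjusted p = 0.000788). The difference was 4.20 without tumor array 2 and 6.54 without tumor array 1, past the threshold each time. With pseudocounts of 1 and of the median it was 6.20 and 3.74, and Cxcl2 passed under both.

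Cxcl1 read 25.3 and 63.5 in control, 26.8 and 50.7 in DSS, and 725 and 2073 in tumor. Again both tumor arrays were the highest, and the DSS values lay within the control range. Means were 44.4 ± 27.0 in control, 38.8 ± 16.9 in DSS and 1399 ± 953 in tumor (SD, n = 2 each). The log2 rise over control was 4.40 (SE 0.51, 95% interval 3.23 to 5.56, limma adjusted p = 0.000848) and over DSS 4.50 (adjusted p = 0.000713). Over control it was 4.90 with a pseudocount of 1 and 3.16 with the median, past the threshold under both.

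**Figure D1:**
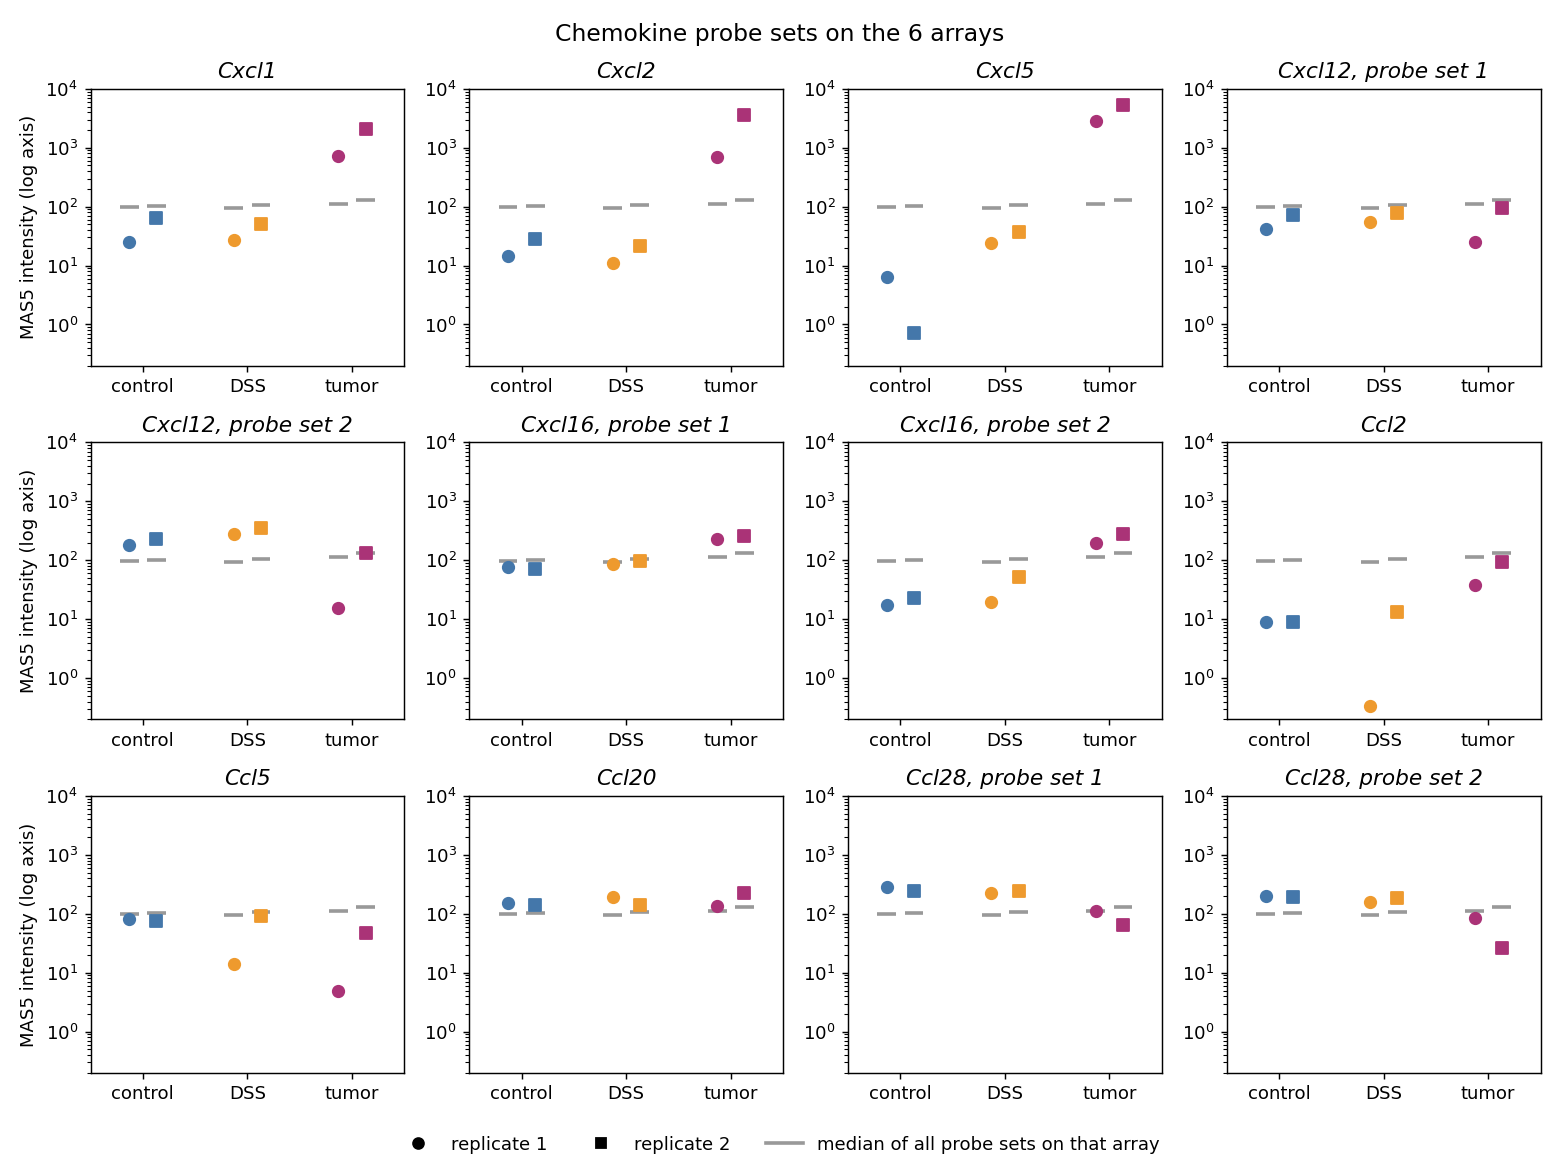
MAS5 intensity (log axis) of the 12 chemokine probe sets, 1 panel each, with a point per array for 2 control, 2 DSS and 2 tumor arrays (circle for replicate 1, square for replicate 2) and a grey dash at the median of all probe sets on that array. The tested probe sets are number 2 of Cxcl12 and number 1 of Cxcl16 and Ccl28. Cxcl1, Cxcl2 and Cxcl5 lie at 693 or more on both tumor arrays and at 63.5 or less on the other 4, while both Ccl28 probe sets are lowest on the tumor arrays.

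Cxcl16, a transmembrane chemokine and scavenger receptor whose own receptor is CXCR6, rose less steeply. Its tested probe set gave 75.7 and 70.8 in control, 87.5 and 98.8 in DSS, and 234 and 254 in tumor. The 3 groups did not overlap, in the order control, DSS, tumor, but the step from control to DSS did not pass the test. Means were 73.3 ± 3.48, 93.2 ± 8.01 and 244 ± 14.4 (SD, n = 2 each). Tumor exceeded control by 1.52 on the log2 scale (SE 0.24, 95% interval 0.98 to 2.07, limma adjusted p = 0.00335), or 0.96 with the median as pseudocount, and DSS by 1.24 (adjusted p = 0.00711), or 0.81 with that pseudocount. The call against DSS did not hold without DSS array 1 (1.17, adjusted p = 0.0574). The second Cxcl16 probe set was 17.5 and 23.2 in control, 19.6 and 52.8 in DSS, and 196 and 279 in tumor. With every probe set as a feature of its own it gave 2.73 for tumor against control (SE 0.39, limma adjusted p = 0.00268) and so had the same direction.

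Ccl28, a chemokine of mucosal epithelium that draws IgA plasma cells through CCR10, fell in tumor crypts. The tested probe set read 281 and 247 in control, 227 and 244 in DSS, and 111 and 65.8 in tumor. Both tumor values were the lowest of the 6, and the DSS arrays lay just under the control arrays. Means were 264 ± 24.0 in control, 235 ± 12.2 in DSS and 88.4 ± 32.0 in tumor (SD, n = 2 each). Ccl28 fell by 1.44 on the log2 scale against control (SE 0.26, 95% interval of the difference -2.03 to -0.85, limma adjusted p = 0.00614), and the difference was -0.93 with the median as pseudocount. Against DSS it fell by 1.29 (adjusted p = 0.00870; -0.82 with that pseudocount), a call that was lost without DSS array 2 (-1.24, adjusted p = 0.0515). The other Ccl28 probe set gave 198 and 192 in control, 157 and 188 in DSS, and 86.7 and 26.5 in tumor. It too was lowest in tumor. With every probe set as its own feature its log2 difference from control was -1.65 (SE 0.38, limma adjusted p = 0.0207), a call lost when the filter was dropped as well (adjusted p = 0.0505).

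Ccl20, which draws CCR6-bearing dendritic cells and lymphocytes to the follicle-associated epithelium, differed little. Its intensities were 150.1 and 139.9 in control, 197 and 141 in DSS, and 137 and 229 in tumor. All 3 groups overlapped, and tumor held both the highest and the lowest value. The log2 difference of tumor from control was 0.26 (SE 0.29, 95% interval -0.40 to 0.92, limma adjusted p = 0.550), so a change of up to about that upper bound is not excluded by these arrays. Its sign turned without tumor array 2 (-0.08).

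Cxcl12, the stromal ligand of CXCR4 that retains stem and immune cells in their niches, was lowest in the tumor arrays. The tested probe set read 179 and 228 in control, 283 and 347 in DSS, and 15.5 and 131 in tumor. The groups did not overlap, in the order tumor, control, DSS, and the tumor arrays were far apart from each other. Means were 204 ± 34.2, 315 ± 45.0 and 73.1 ± 81.4 (SD, n = 2 each). Tumor minus control was -1.65 (SE 0.58, 95% interval -2.99 to -0.31, limma adjusted p = 0.0781) and did not pass. It passed under quantile normalization (-1.81, adjusted p = 0.0368), under median centring (-1.77, adjusted p = 0.0419), with a replicate block (-1.65, adjusted p = 0.0373) and without tumor array 2 (-2.72, adjusted p = 0.000829). Without tumor array 1 the difference was -0.57, and with the median as pseudocount -0.86. The size thus rests on tumor array 1 and on the handling of dim signal.

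Against DSS crypts Cxcl12 fell by 2.24 (SE 0.58, limma adjusted p = 0.0252). That call was lost without a filter (adjusted p = 0.0572), without DSS array 1 (0.0702), without DSS array 2 (0.0884) and with a block for the high spike controls (0.0571), and the difference was -1.16 without tumor array 1 and -1.30 with the median as pseudocount. The second Cxcl12 probe set gave 41.6 and 72.4 in control, 54.3 and 79.1 in DSS, and 25.01 and 94.7 in tumor, below the median on every array. Its tumor values spanned those of both other groups, with a log2 difference from control of -0.08, so it did not share the pattern of the tested probe set. Fibroblast markers, summed over 13 genes on the array, ran 2443 and 4731 in control, 3327 and 5847 in DSS, and 946 and 6822 in tumor, and 0 of the 9 tested passed. Tumor array 1 was the lowest array both for that sum and for Cxcl12, and the part of fibroblasts in the Cxcl12 values was not tested. In such pooled samples, fewer cells of a type and less RNA per cell cannot be told apart.

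Ccl2 and Ccl5, attractants of monocytes and of T cells, were dim throughout. Ccl2 read 8.88 and 8.86 in control, 0.330 and 13.3 in DSS, and 38.3 and 92.6 in tumor. Both tumor values were the highest. In the fit with no filter Ccl2 gave 1.56 for tumor against control (SE 0.40, limma adjusted p = 0.0494), at the edge of the threshold, and 0.0564 as adjusted p when every probe set was a feature of its own. Against DSS the difference was 1.73 (adjusted p = 0.0316).

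Ccl5 was 82.2 and 75.1 in control, 13.9 and 90.6 in DSS, and 4.96 and 47.4 in tumor. Both tumor values lay below both control values, but the DSS arrays covered nearly the whole range. With no filter the log2 difference of tumor from control was -1.32 (SE 0.67, limma adjusted p = 0.266).

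In tumor against control, 5 of the 7 tested chemokine genes passed: Cxcl1, Cxcl2, Cxcl5 and Cxcl16 were higher and Ccl28 lower. Over all genes tested, 12.8% were called higher and 9.75% lower, and the 4 higher ones are the genes that entered the test through the tumor arrays alone, so nothing is read from their count. The split over all genes moved from 955 higher and 726 lower to 883 and 907 under quantile normalization and to 792 and 962 under median centring, and centring moved the median of all genes from 0.05 to -0.07. The 5 chemokine calls kept their direction under both. Groups did not overlap for 6 of the 7, those 4 among them, against 61.5% of all genes tested. In tumor against DSS, which shares the tumor arrays, 6 of 7 passed, Cxcl12 and Ccl28 being lower and the same 4 higher, against 14.9% called higher and 11.3% lower. With no filter 6 of the 9 were called in each of these comparisons, Ccl2 among them, against 11.7% of 12393 genes in tumor against control and 13.7% in tumor against DSS.

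**Figure D2:**
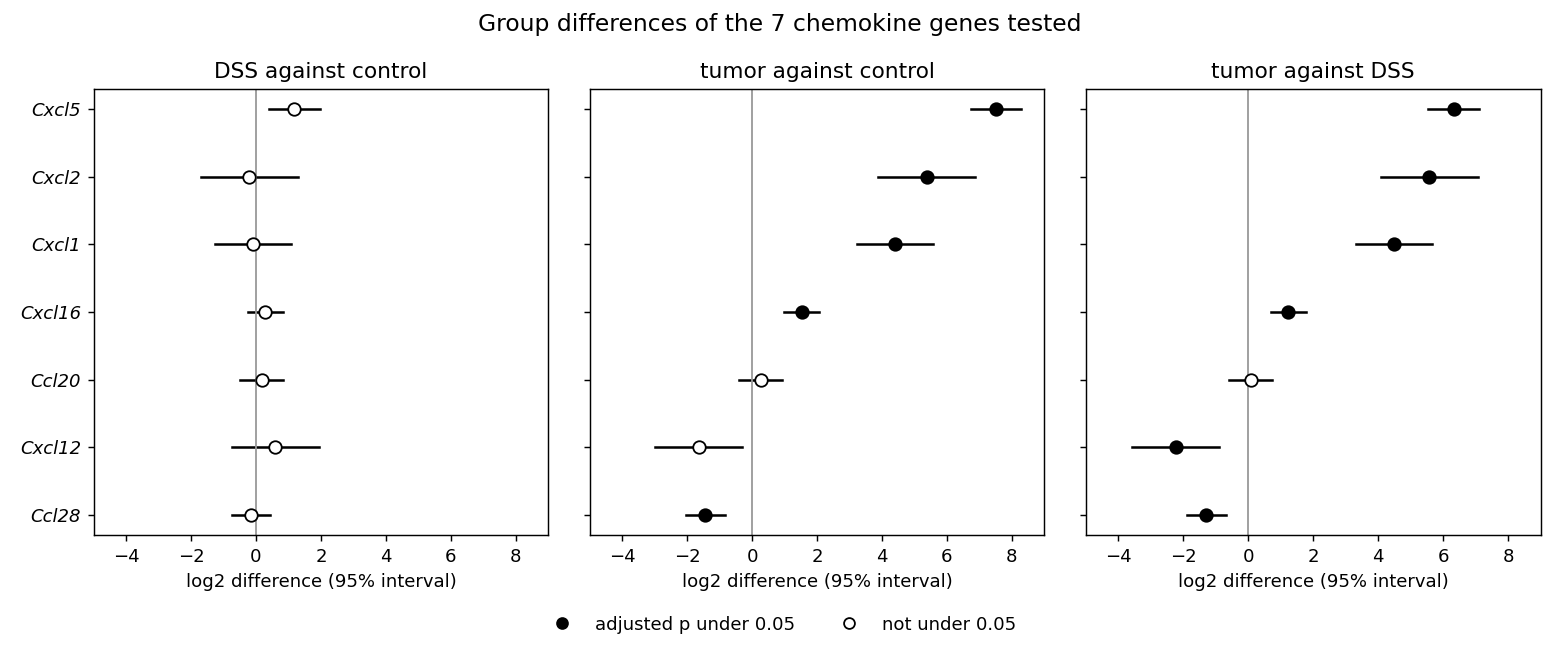
Log2 difference with its 95% confidence interval (limma, all 6 arrays) for the 7 tested chemokine genes in DSS against control, tumor against control and tumor against DSS. The DSS intervals of all but Cxcl5 include 0, whereas those of Cxcl5, Cxcl2, Cxcl1 and Cxcl16 lie above 0 and those of Ccl28 and Cxcl12 below 0 in both tumor comparisons. Filled points mark an adjusted p under 0.05, which Cxcl12 reached against DSS but not against control.

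In crypts after 2 days of DSS, 0 of the 7 tested chemokine genes passed the adjusted test, as did 0% of all genes tested. At an unadjusted p under 0.05 Cxcl5 alone of the 7 passed, against 2.53% of all genes. Its log2 difference from control was 1.18 (95% interval 0.40 to 1.96, unadjusted p = 0.00796 and adjusted p = 1.00 in limma). The value was 3.11 with a pseudocount of 1 and 0.31 with the median, and Cxcl5 passed in a fit of these 2 groups with a replicate block (adjusted p = 0.0327) but not with that block over all 3 groups (adjusted p = 0.963). Groups did not overlap for 4 of the 7, Cxcl5, Cxcl12 and Cxcl16 being higher and Ccl28 lower in DSS, against 26.5% of all genes.

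The intervals show how large a DSS difference these arrays leave possible. They ran from -1.27 to 1.07 for Cxcl1 and from -1.69 to 1.29 for Cxcl2, around estimates of -0.10 and -0.20. Such widths span more than a doubling or halving of the signal either way. The intervals were narrower for Cxcl16, from -0.26 to 0.83, for Ccl28, from -0.75 to 0.44, and for Ccl20, from -0.48 to 0.84. For Cxcl12 the estimate was 0.59, with an interval from -0.75 to 1.93.

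Arrays of a group also differed from each other. Of the 12 probe sets 10 were higher on tumor array 2 than on tumor array 1, the exceptions being both Ccl28 probe sets, and 11 were higher on DSS array 2 than on DSS array 1. Between the control arrays 5 of 12 were higher on array 2.

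Among the other chemokine ligands, 25 of 29 listed genes were on the array and 6 were tested. In tumor against control 2 rose, 1 fell and 3 did not pass, and the median difference of the 6 was 0.55. For all genes tested it was 0.05, with 12.8% called higher and 9.75% lower. Cxcl13, the B-cell attractant of lymphoid follicles, read 58.4 and 106 in control, 106 and 105 in DSS, and 222 and 249 in tumor. Both tumor arrays were highest, and the rise was 1.38 (SE 0.29, limma adjusted p = 0.0114, but 0.0504 without tumor array 2). Ccl9, a ligand of CCR1, rose by 0.71 (SE 0.19, adjusted p = 0.0314) but lost its call under 13 alternatives. Ccl6, a ligand of the same receptor, fell by 1.18 (SE 0.26, adjusted p = 0.0157, but 0.0978 without control array 2).

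Of the chemokine receptors 21 of 23 were on the array and 1, Ackr3, was tested. Cxcr2, the receptor of the ELR chemokines and named here for that role after its values were seen, was untested at 3.37 and 21.0 on the tumor arrays. Ackr3, the scavenger receptor for CXCL12, gave 90.6 and 160.1 in control, 43.7 and 100.2 in DSS, and 703 and 395 in tumor. Both tumor values were highest, and unlike most of the chemokines Ackr3 was higher on tumor array 1. Outside tumor Ackr3 exceeded the array median only on control array 2, so it needed the tumor arrays to pass the filter. It rose by 1.97 over control (SE 0.41, limma adjusted p = 0.0114, but 0.0605 without control array 1) and by 2.68 over DSS (adjusted p = 0.00265).

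Proteases and glycan carriers shape how long and where chemokines act. All 12 listed were on the array, and of the 7 tested 2 rose, 1 fell and 4 did not pass in tumor against control, with a median of 0.26, beside 12.8% called higher, 9.75% lower and a median of 0.05 over all genes tested. Mmp7, the matrix protease matrilysin, which sheds syndecan-1 with its bound chemokine, read 36.3 and 30.8 in control, 34.6 and 25.8 in DSS, and 6283 and 5709 in tumor. It rose by 6.87 (SE 0.20, limma adjusted p = 1.69e-06). Mmp7 passed the filter through the tumor arrays alone, and so had to be high there to be tested at all. Adam10, a sheddase of CXCL16, rose by 0.69 (SE 0.16, adjusted p = 0.0165), a call lost without either control array or without tumor array 2. Dpp4, the dipeptidyl peptidase that trims and inactivates CXCL12, fell by 1.75 (SE 0.24, adjusted p = 0.00210).

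Cytokines that induce chemokines, their receptors and NF-kB genes had 30 of 34 listed genes on the array and 23 tested. In tumor against control 7 rose, 2 fell and 14 did not pass, with a median of 0.30, beside the same 12.8%, 9.75% and 0.05 over all genes tested. Of the 7, Il33 and Rel passed the filter through the tumor arrays alone, and so had to be high there to be tested. Outside tumor Il1b exceeded the array median only on DSS array 2. Rel was named for this after its values were seen. The alarmin Il33 rose by 2.70 (SE 0.27, limma adjusted p = 0.000441) and the bacterial lipoprotein receptor Tlr2 by 1.83 (SE 0.21, adjusted p = 0.000749). Il1b was 50.4 and 71.8 in control, 34.4 and 120.1 in DSS, and 187 and 1752 in tumor, a rise of 2.95 that lay close to the threshold (SE 0.88, adjusted p = 0.0449). Without tumor array 2 the Il1b difference was 1.39 (adjusted p = 0.140), and its call was also lost without either control array. Il17re, a subunit of the epithelial receptor for IL-17C, fell by 1.29 (adjusted p = 0.00413). Nfkbiz, a nuclear cofactor of NF-kB, rose by 1.39 (adjusted p = 0.0243, but 0.105 without tumor array 2 and 0.107 and 0.0537 without control array 1 and 2), whereas Nfkbia, its cytoplasmic inhibitor, gave 0.38 (adjusted p = 0.134). Tnf was untested at 3.92 and 10.2 in control, 4.07 and 4.58 in DSS, and 103 and 397 in tumor. Il17a, also untested, was 22.4 and 114 on the tumor arrays and at most 19.6 on the other 4. In DSS against control no gene of these 4 lists passed.

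Of 12 markers of neutrophils, the cells that CXCR2 ligands attract, 5 were higher on both tumor arrays than on every control and DSS array. The share of all genes with that pattern was not computed, so nothing is read from this count. The 2 that were tested, S100a8 and S100a9, rose in tumor, beside 12.8% of all genes tested called higher. Both passed the filter through the tumor arrays alone, and so had to be high there to be tested at all. The summed intensity over 12 genes was 125 and 163 in control, 144 and 225 in DSS, and 1167 and 12146 in tumor. On both tumor arrays S100a8 and S100a9 made up most of that sum. S100a8 read 698 and 6638 in tumor, with a rise over control of 6.43 (SE 0.88, limma adjusted p = 0.00188), and S100a9 gave 281 and 4555, a rise of 5.29 (SE 1.02, adjusted p = 0.00840). Both are calcium-binding proteins of neutrophils that inflamed epithelium can also make. Of the 12 markers 7 never passed an array median. Csf3r, the receptor for granulocyte colony-stimulating factor, was 42.0 and 127 in tumor against 45.2 and 71.1 in control. The granule enzyme Mpo was 8.45 and 8.15 in tumor against 0.579 to 2.92 elsewhere, under the 25th percentile of both tumor arrays (16.6 and 21.3). Ltf was 84.0 and 293 in tumor against 3.16 to 28.4 elsewhere, and Il1r2 18.3 and 153 against 1.81 to 13.1. Mpo, Ltf and Il1r2 were untested and, with S100a8 and S100a9, are the 5 markers higher on both tumor arrays. Among the rest, Elane was 12.4 and 7.08 in tumor, 6.82 and 11.5 in control and 30.4 and 34.7 in DSS. Ngp was 9.47 and 201 in tumor against 20.4 to 37.8 elsewhere. Mpo, Il1r2, Elane and Ngp were named after their values were seen. Tumor array 2, the higher in the neutrophil sum, was also the higher for Cxcl1, Cxcl2 and Cxcl5. Without it these 3 still rose over control, by 3.65, 4.20 and 7.06. Tumor array 1, kept in that fit, also had a higher neutrophil sum than every control and DSS array, carried by S100a8 (698) and S100a9 (281). Of the others named, Ltf, Il1r2 and Mpo were higher there than in control and DSS, and Csf3r, Elane and Ngp were not. What part neutrophils had in these rises was not tested.

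Monocyte and macrophage markers ran from 2013 to 3027 in control and DSS and were 5644 and 11398 in tumor. Cd14, a co-receptor for endotoxin, and Lyz2, a lysozyme, made up most of that sum on every array. Cd14 alone was at 1158 to 1568 on the control and DSS arrays. Of the 15 on the array 4 were higher on both tumor arrays than on every other array, a pattern whose share over all genes was not computed. Of the 8 tested 2 were called higher, beside 12.8% of all genes tested. Lyz2 rose by 3.89 (limma adjusted p = 0.00472) and Cd14 by 0.70 (adjusted p = 0.0422). The others tested did not pass, Csf1r among them (1.42, adjusted p = 0.238), and Cd68 and Adgre1 were untested. T and NK cell markers summed to between 184 and 477, with 0 of 12 tested. B and plasma cell markers summed to between 2681 and 6367, with 0 of 2 tested passing in tumor against control. That sum was carried by Sdc1, also in the glycan carrier list, at 2551 to 4540, and by Jchain. Jchain differed widely within groups, at 186 and 2422 in control, 95.4 and 3094 in DSS, and 97.5 and 1637 in tumor. The endothelial sum was 305 and 663 in control, 363 and 774 in DSS, and 635 and 2122 in tumor. Smooth muscle markers were 606 and 3230 in control, 1106 and 3083 in DSS, and 356 and 1059 in tumor. Both of these sums, and the fibroblast sum, were higher on array 2 than on array 1 of every group. The epithelial sum stayed between 73358 and 89292. Of its 11 markers 2 were called higher and 0 lower in tumor against control, beside 12.8% and 9.75% of all genes tested. These were Cldn4, which rose by 3.58 (SE 0.21, limma adjusted p = 5.84e-05), and Krt18, by 0.63 (SE 0.15, adjusted p = 0.0220). Both were named after their values were seen. What part such cells had in any of the chemokine differences was not tested.

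**Figure D3:**
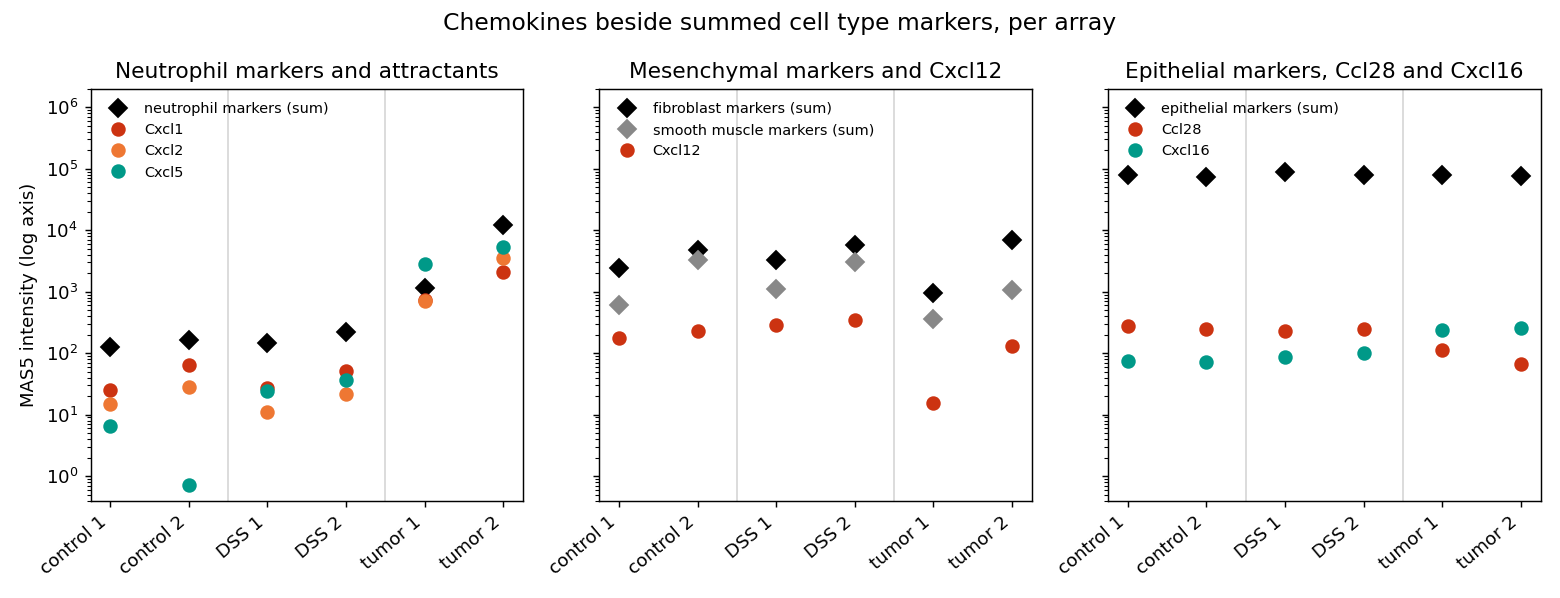
MAS5 intensity (log axis) on each of the 6 arrays, in 3 panels: Cxcl1, Cxcl2 and Cxcl5 beside the summed neutrophil markers, the tested Cxcl12 probe set beside the summed fibroblast and smooth muscle markers, and the tested Ccl28 and Cxcl16 probe sets beside the summed epithelial markers. Cxcl1, Cxcl2 and Cxcl5 and the neutrophil sum, which in tumor is mostly S100a8 and S100a9, are highest on both tumor arrays. The epithelial sum lies between 73358 and 89292 on every array.

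The genes most alike across the 6 arrays were those with the smallest Euclidean distance between log2 values centred on each gene's mean. For Cxcl5 they were the Wnt inhibitors Apcdd1 and Wif1 and the protease Mmp7, at distances of 1.09, 1.43 and 1.56. For Cxcl2 they were the collagenase Mmp13 at 0.92, the iron-siderophore binder Lcn2 at 0.98 and the plasminogen activator Plat at 1.05. Cxcl16 lay nearest to Sh3bp2, Hspa2 and Exoc4, at 0.18, 0.20 and 0.28. Ccl28, which had the largest fall among the tested chemokines that passed against control, lay nearest to the water channel Aqp4 at 0.25, the chloride channel Cftr at 0.27 and Plcd1 at 0.29. Cxcl12, whose larger fall against control did not pass, lay nearest to Il15ra at 0.48, Adamdec1 at 0.52 and Dpt at 0.61. These distances describe 6 arrays that share their groups and replicates.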

How the data were processed

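RNA of crypts was hybridised to 6 Affymetrix arrays, 2 pools each for control, DSS and tumor. Per the submitters' processing notes the values are MAS5 signals. The deposited table holds them as linear intensity per probe set, scaled by the authors to a common trimmed mean (500.2 here, 2% off each end). Symbols came from the platform table: of 22690 probe sets, 64 were controls, and of the other 22626, 20380 had 1 symbol, 691 several and 1555 none. The chemokines and gene lists were chosen with earlier results of these data known.

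Intensities plus 17.8 (the 25th percentile of all values) were put on a log2 scale and fitted over all 6 arrays with limma 3.58.1 in R 4.3.3 (lmFit, eBayes with trend), with no covariates, after checks on simulated data. Kept were probe sets exceeding the median of their array at least 2 times, and for each gene the probe set of highest mean was tested (7445 genes). Tests are 2-sided. Named genes were the 9 chemokines and called genes of the listed ligands and receptors. In the protease and inducer lists up to 6 called genes of smallest p were named, with Tnf, Il1b, Il17a, Nfkbia and Nfkbiz. Cell type markers were named for the epithelial, neutrophil, macrophage and B cell lists only. They came from the brightest in tumor and the first of each list, not all of which were named. Other genes were named after their values were seen, as stated with them. The 3 nearest genes of Cxcl5, Cxcl2, Cxcl16, Ccl28 and Cxcl12 were named too. Alternatives varied scaling, pseudocount, filter, probe sets, trend, blocks and arrays. No genome or protein sequences were used, and RefSeq promoters came as a table.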

Additional observations from a re-analysis of the deposited data

How the results depend on the processing

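Cxcl1, Cxcl2, Cxcl5, Cxcl16 and Ccl28 kept their direction and their call in tumor against control under all alternatives run in which they were tested. The 75th-percentile filter left 3 chemokine calls (Cxcl1, Cxcl2 and Cxcl5) and 1 call among the other ligands and receptors in each tumor comparison, with 1094 genes called against control and 1256 against DSS, because fewer genes were tested. Leaving out an array gave 845 to 1749 called genes for tumor against control (1681 with all arrays), 895 to 1920 for tumor against DSS (1951) and 0 to 2 for DSS against control (0). Over the same fits chemokine calls ran from 5 to 6, 4 to 6 and 0 to 0, and other ligands and receptors had 2 to 4 calls in tumor against control, the fewest without control array 1, control array 2 or tumor array 2. The extremes of 845 and 895 came without control array 2 and DSS array 1. Among the chemokines, sign changed only in values that never passed. Over the same fits the log2 difference in DSS against control ran from -0.56 (without control replicate 1) to 0.36 (without control replicate 2) for Cxcl1, with 0.21 without DSS replicate 1. It ran from -0.45 to 0.050 for Cxcl2 on leaving out the same control arrays, with 0.020 without DSS replicate 1. For Ccl20 it ran from -0.034 (without DSS replicate 1) to 0.40 (without DSS replicate 2). Ccl20 in tumor against control ran from -0.075 (without tumor replicate 2) to 0.60 (without tumor replicate 1). In tumor against DSS it ran from -0.26 to 0.42 on leaving out the same arrays, and was -0.14 without DSS replicate 2, -0.12 under quantile normalization and -0.045 under median centring. The causes were not tested.

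The labels give groups the same replicate numbers but do not say that a number marks a shared batch. Deviations of same-numbered arrays from their group means correlated at 0.45 for control and DSS, 0.08 for control and tumor and 0.44 for DSS and tumor, and 2 numbers cannot settle a pairing. With a replicate block in a fit of the compared groups only, 1 chemokine (Cxcl5) and 124 genes were called in DSS against control, and 2943 genes in tumor against DSS. The fit with no filter and every probe set as its own feature was chosen after seeing the data. Dim signals near background, such as Ccl2, Ccl5 and the control values of Cxcl5, limit what can be said of their folds.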
